A study of Mus musculus with 6 samples.

Results

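Amino acid carriers are membrane proteins that move amino acids into cells, out of cells and across the lysosomal membrane. The genes described here are the rows of the deposited table named Slc1a, Slc3a, Slc6a, Slc7a, Slc36a, Slc38a or Slc43a with a number, except Slc6a12, Slc6a6, Slc6a20a, Slc38a2, Slc7a2 and Slc7a11. This gave 47 of 19162 genes. The rule uses gene names only, but it was set with earlier results of these data known. The tested libraries came from bone marrow cells of C57BL/6J mice cultured for 4 days with 40 ng/mL of granulocyte-macrophage colony-stimulating factor (GM-CSF), a growth factor for myeloid cells. In the KCl group 34.7 mM of KCl was added to the culture (KCl 1, 2 and 4), and in the control group none was added (control 1, 2 and 4). All 6 cultures had GM-CSF, added salt also raises osmolality, and no other salt or solute was analysed here. The series calls the cells bone marrow-derived myeloid-derived suppressor cells, the labels call them bone marrow cells, and neither says whether replicates came from separate mice.

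Carriers differ in what drives them. Exchangers such as the CD98 complex, in which a heavy chain (Slc3a2) holds a light chain (Slc7a5 and relatives) at the cell surface, bring in 1 amino acid for another that leaves. Sodium-coupled carriers (Slc1, Slc6, Slc38) concentrate amino acids by using the sodium gradient. Many, but not all, carriers of the family named proton-coupled (Slc36) use the pH gradient, and they often sit in lysosomes. Cationic carriers (Slc7a1 and relatives) follow the membrane potential, which depends on the potassium outside the cell. Cells short of amino acids raise many carrier genes through the kinase GCN2 and the transcription factor ATF4, and lysosomal amino acids switch on the growth kinase complex mTORC1. Several genes of these families do not carry amino acids across the cell membrane. Slc6a4 takes up serotonin, Slc6a8 creatine and Slc43a3 purine nucleobases, Slc38a9 is a lysosomal arginine sensor, and Slc36a1os, Slc36a3os and Slc7a6os are opposite-strand genes.

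The 6 libraries held 14118724 to 21694831 counts, and mitochondrial genes took 3.26% to 3.61% of counts in KCl and 3.89% to 4.80% in control. The 2 libraries numbered 4 depended on the rest. Averaged together, KCl 4 and control 4 matched the average of the remaining libraries with an SD of 0.0095 in log2 ratio over 8231 well-counted genes, less than the 0.044 that counting noise would leave, while any of the 14 other pairs gave an SD of 0.123 to 0.262. The p-values and standard errors below, except those given without replicate 4, can be too small for this reason. The confidence intervals of the fit can be too narrow for the same reason. Fits with 1 library left out still held KCl 4, control 4 or both, so this limit can apply to them too. Markers of the cell types the culture could hold were also tested, and their counts are to be read against the 22.9% of all tested genes that passed an adjusted p of 0.05 in edgeR (12.4% higher, 10.5% lower). Summed FPKM (deposited values, fragments scaled to gene length and library size) of 6 monocyte markers was 468 to 501 in KCl and 299 to 356 in control (4 rose, 0 fell), and that of 10 neutrophil markers was 14326 to 18933 in KCl and 12885 to 13697 in control (4 rose, 0 fell). The sum of 7 dendritic cell markers was 756 to 1001 in KCl and 1206 to 1579 in control (0 rose, 4 fell), and that of 5 eosinophil markers was 591 to 733 in KCl and 1483 to 1637 in control (0 rose, 2 fell). Most of the eosinophil sum came from Prg2 (mean 488 in KCl, 1164 in control) and Epx (186 and 368). Siglecf (log2 fold change 0.13), Ccr3 (0.28) and Il5ra (-0.33) did not pass. The sum of 7 macrophage markers was 219.8 to 247 in KCl and 179 to 215 in control (1 rose, 0 fell), and that of 5 basophil and mast cell markers was 174 to 188 in KCl and 219 to 242 in control (1 rose, 1 fell). Of these 5, Mcpt8 fell (mean 94.6 in KCl, 155 in control) and Kit rose (8.98 and 4.78). Ms4a2 (log2 fold change 1.15), Cpa3 (0.07) and Fcer1a (-0.02) did not pass. The sums overlapped for 5 stromal and endothelial markers (8.63 to 9.25 in KCl, 8.91 to 9.22 in control; 1 rose, 0 fell), for 5 lymphocyte markers (3.98 to 6.26 and 3.43 to 4.86; 1 rose, 0 fell) and for 4 erythroid markers (0.628 to 0.685 and 0.614 to 0.783; none counted often enough to test). No marker was at 0 in all libraries. The part of cell composition in the results below was not tested, and in bulk samples fewer cells of a type and less RNA per cell cannot be told apart.

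Of the 47 genes, 28 had enough counts to be tested, and the other 19 were scarce, with a mean under 10 counts. With KCl, 6 tested carrier genes rose (Slc36a2, Slc7a4, Slc6a13, Slc38a6, Slc36a1 and Slc36a4) and 5 fell (Slc1a4, Slc43a1, Slc7a5, Slc7a1 and Slc7a6os), while 17 did not pass. A gene passed if its adjusted p (Benjamini-Hochberg, over all 13326 tested genes) was under 0.05 in the quasi-likelihood test of edgeR. The 11 genes are 39.3% of the 28, and by the same rule 22.9% of all tested genes passed, 12.4% higher and 10.5% lower. The groups did not overlap in FPKM for 16 of the 28, against 38.4% of all tested genes. The median log2 fold change (KCl minus control) was -0.020 over the 28 and -0.0045 over all tested genes. Leaving out the opposite-strand genes, of which 2 were tested, 6 rose and 4 fell among 26. Without control 4 and KCl 4, Slc36a2 alone of the 11 passed (edgeR adjusted p = 0.0429), and the other 10 lay between 0.0686 and 0.169. In that comparison 0.458% of all genes passed, and all 11 kept their sign. With any 1 library left out, 7 of the 11 always passed, but each of these fits still held KCl 4, control 4 or both. The 4 genes that did not always pass are named below.

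**Figure D1:**
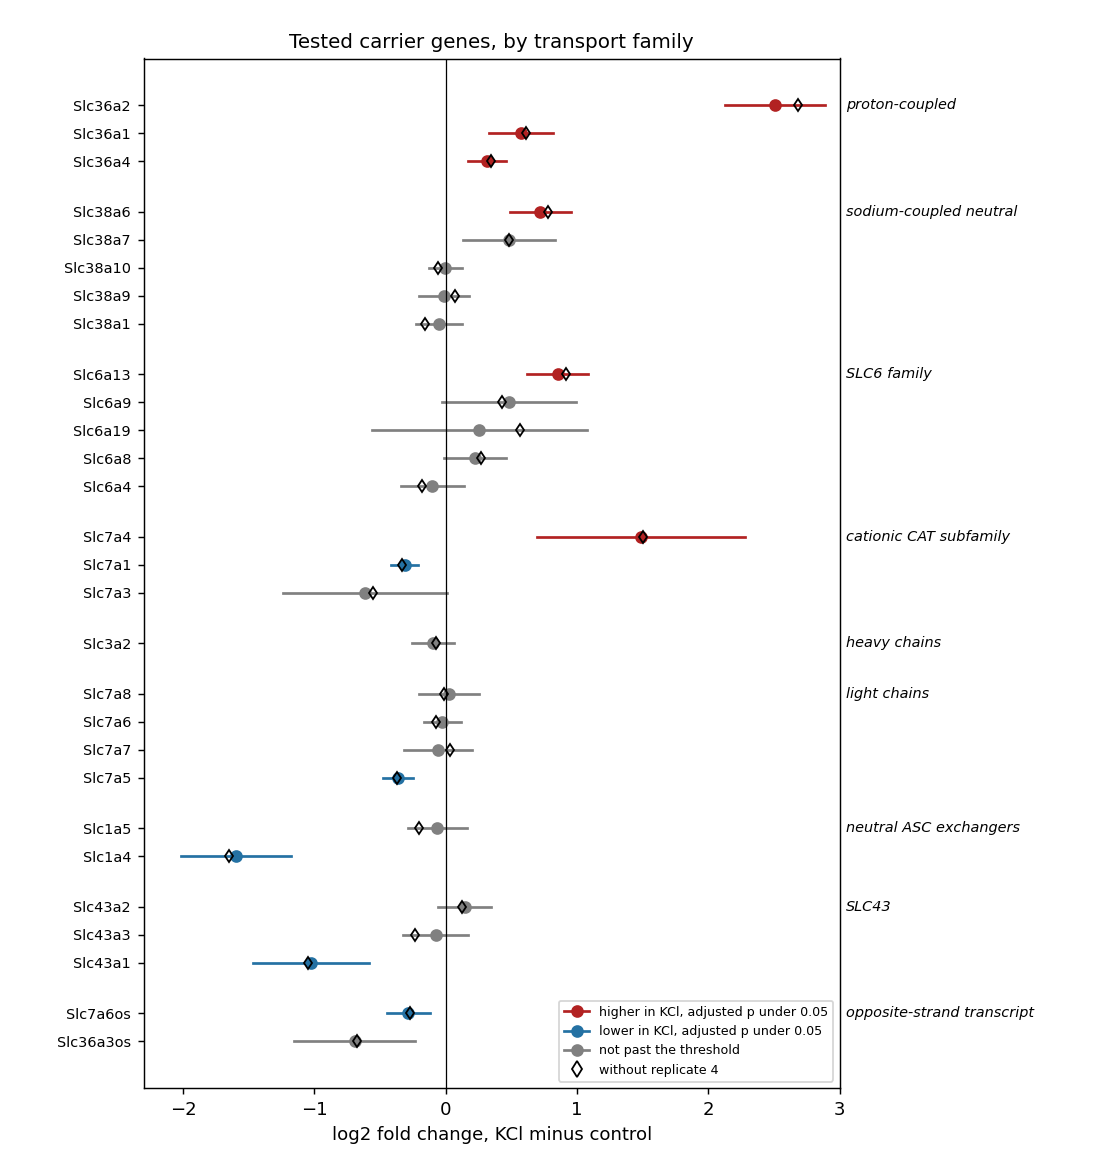
Log2 fold change of each of the 28 tested genes (x axis, KCl minus control), grouped by family down the page, with the 95% interval of the fit as a line and the value without replicate 4 as a diamond. The 3 tested genes of the proton-coupled family lie right of 0, and Slc1a4 at -1.60 and Slc36a2 at 2.51 are the ends of the range.

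Start-site sequences are shown for 3 genes because each holds a short word bound by a regulator named above or by a lysosomal one. Promoters of the mouse build GRCm38.p6 (RefSeq) were matched for 20 of the 28 tested genes. A set of 3 words was searched on both strands in 300 bases around each start, namely TGATGNAA for the C/EBP-ATF response element, TCACGTGA for the CLEAR element of lysosomal genes and TGGAAA for the NFAT core, and their spans do not overlap in the sequences printed. Each sequence below runs 5′ to 3′ on the gene's strand from 100 bases before the start to 4 bases after it, with the word in capitals. Slc1a4 (chr11:20332710-20332813, minus strand) holds the C/EBP-ATF word on the opposite strand across its start, Slc36a1 (chr11:55204240-55204343, plus strand) holds the CLEAR word at the same place, and Asns, the asparagine synthetase gene (chr6:7693206-7693309, minus strand), is given as a known ATF4 target.
Slc1a4: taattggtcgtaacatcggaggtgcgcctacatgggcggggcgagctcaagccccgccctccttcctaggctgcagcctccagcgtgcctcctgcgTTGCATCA
Slc36a1: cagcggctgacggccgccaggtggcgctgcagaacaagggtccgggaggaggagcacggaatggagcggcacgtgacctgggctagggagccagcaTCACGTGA
Asns: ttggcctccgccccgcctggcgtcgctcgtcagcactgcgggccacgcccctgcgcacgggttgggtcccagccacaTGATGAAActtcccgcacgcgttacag
TGATGNAA was found in 3.97% of all 32851 promoters, in 1 of 4 matched genes that fell (Slc1a4), in 0 of 4 that rose and in 1 of 12 that did not pass (Slc7a7). TCACGTGA was found in 0.974% of all promoters, in 1 of 4 matched genes that rose (Slc36a1) and in 0 of the other 16. TGGAAA was found in 21.4% of all promoters, in 2 of 4 that rose (Slc38a6 and Slc6a13), in 0 of 4 that fell and in 3 of 12 that did not pass. A gene was counted if any of its promoters held the word, while the shares over all are per promoter. Counted per promoter, TGGAAA was in 2 of 6 of the genes that rose, 0 of 5 of those that fell and 4 of 20 of those that did not pass. A word in this window is a description of the letters there and not a measured binding site.

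The 3 tested genes of the proton-coupled family rose past the threshold, where 12.4% of all tested genes did. Of the 3, only Slc36a2 passed without replicate 4. The family also holds Slc36a3, too scarce to test, with fewer counts in every KCl library than in any control library. Slc36a2, a high-affinity carrier of proline, glycine and alanine, had 2.25, 1.91 and 1.96 FPKM in KCl 1, 2 and 4, against 0.344, 0.316 and 0.443 in control 1, 2 and 4. These rest on 143, 114 and 118 counts in KCl and 24, 23 and 21 in control. The lowest KCl library had more than 4 times the FPKM of the highest control library, and the log2 fold change was 2.51 ± 0.16 (SE, n = 3 per group), 5.70-fold, with an edgeR adjusted p of 0.00178. Without replicate 4 it was 2.68.

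Slc36a1, which exports small neutral amino acids from lysosomes, was far more abundant. It had 17.6, 18.7 and 17.8 FPKM in KCl 1, 2 and 4 and 10.7, 13.7 and 12.6 in control 1, 2 and 4, so the groups did not overlap. It rose by 0.57 ± 0.10 on the log2 scale, 1.49-fold (edgeR adjusted p = 0.0116). Slc36a4, a high-affinity carrier of proline and tryptophan, had 11.8, 11.8 and 11.6 FPKM in KCl and 9.03, 9.98 and 9.70 in control. Its rise was small, at 0.31 ± 0.06 (edgeR adjusted p = 0.0148), and it missed the threshold without control 4 (0.0567).

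Slc36a1, Slc36a2 and Slc36a3 lie side by side on chromosome 11 of mm10 (GENCODE M21). Slc36a3 spans 55124815 to 55151708 on the minus strand, Slc36a2 spans 55158470 to 55185077 on the minus strand and Slc36a1 spans 55204350 to 55236330 on the plus strand. Slc36a3, known mainly from testis, had 5, 6 and 5 counts in KCl and 15, 10 and 9 in control, too few to test. Slc36a3os, which lies inside Slc36a3 on the other strand, had 10, 11 and 10 counts in KCl and 20, 20 and 13 in control, with a log2 fold change of -0.69 ± 0.19 that did not pass (edgeR adjusted p = 0.0960). Whether counting used strand is not stated in the sources used here, and reads of this overlapping pair cannot be told apart. Slc36a4 lies on chromosome 9.

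**Figure D2:**
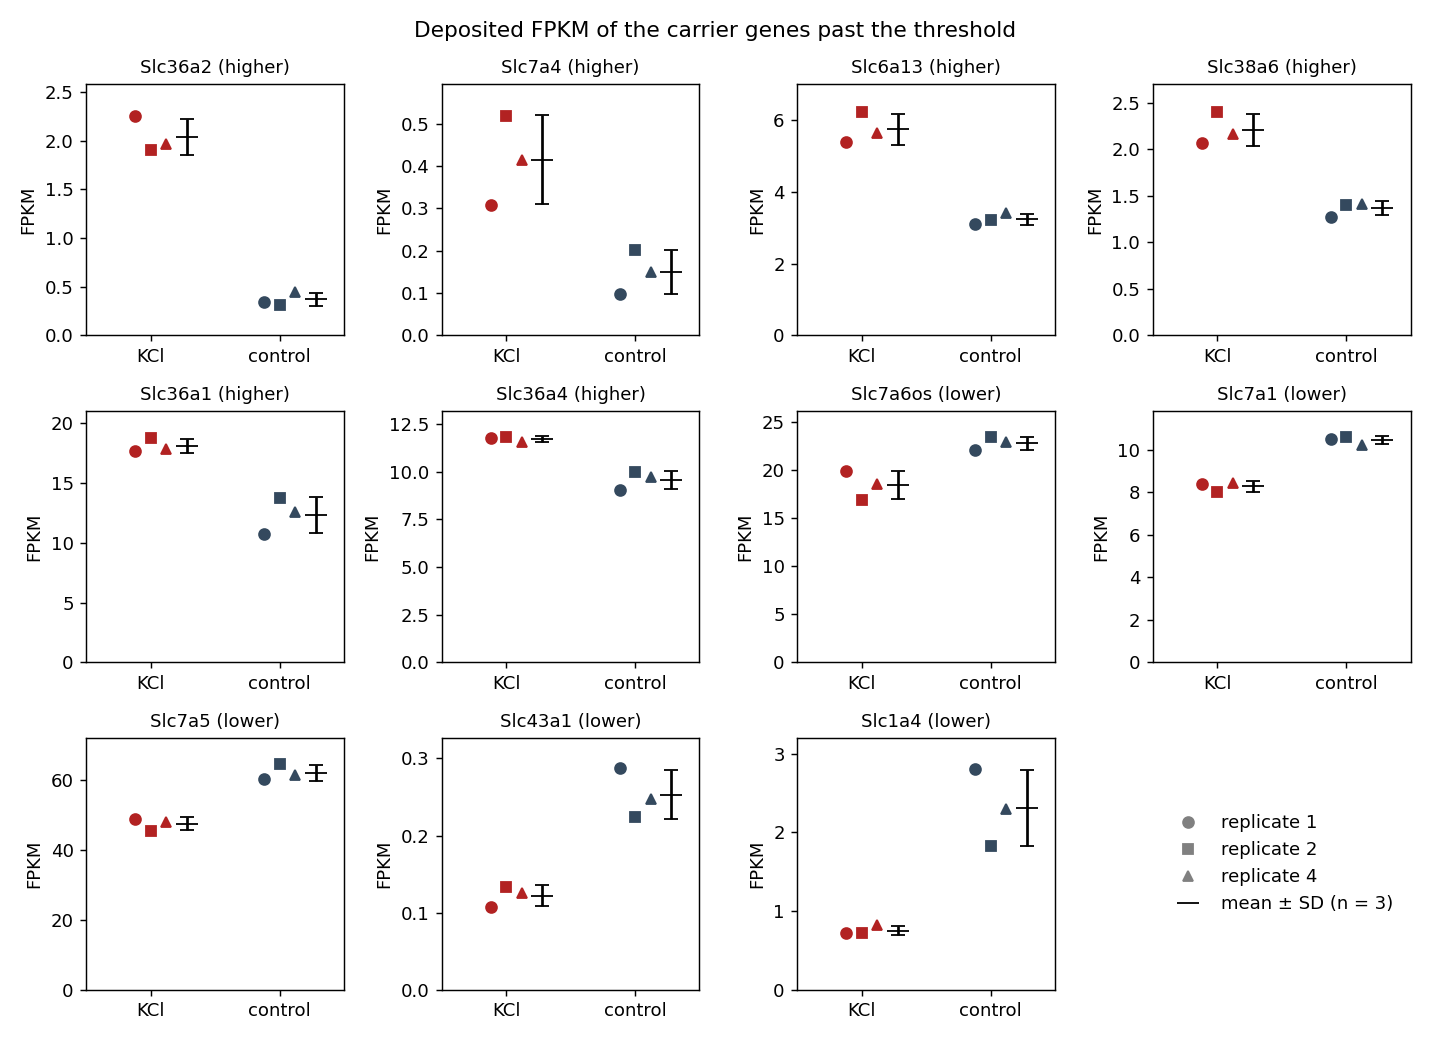
Deposited FPKM (y axis, from 0) of the 11 carrier genes past the threshold, with the KCl libraries left and the control libraries right in each panel, a marker shape for each replicate number and the mean ± SD (n = 3) beside them. The groups do not overlap in any panel. Slc36a2 averages 2.04 in KCl and 0.368 in control, and Slc1a4 averages 0.752 in KCl and 2.31 in control.

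Among the sodium-coupled neutral carriers of the Slc38 family, 1 of 5 tested genes rose, none fell and 4 did not pass. This is near the shares over all tested genes, of which 12.4% rose and 10.5% fell. Slc38a6, a member whose substrates are less well known, had 2.08, 2.41 and 2.16 FPKM in KCl and 1.28, 1.41 and 1.41 in control. It rose by 0.72 ± 0.10 on the log2 scale (edgeR adjusted p = 0.00581), and the groups did not overlap. Slc38a7, which exports glutamine from lysosomes, had 10.8, 12.4 and 11.7 FPKM in KCl and 6.98, 10.02 and 8.39 in control. The groups did not overlap here either, but at 0.48 ± 0.14 it did not pass (edgeR adjusted p = 0.0607). It passed without control 2 (0.0270) and in DESeq2 (0.0208).

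Slc38a1, which loads cells with glutamine, ranked just below the CD98 chains in level. It had 25.7, 24.4 and 28.4 FPKM in KCl and 28.4, 28.8 and 25.3 in control, so the groups overlapped, with a log2 fold change of -0.05 and a 95% interval of -0.23 to 0.12. Slc38a9, the lysosomal arginine sensor upstream of mTORC1, had 2.86, 2.71 and 2.59 FPKM in KCl and 2.58, 2.84 and 2.94 in control. Its log2 fold change was -0.01 with a 95% interval of -0.20 to 0.18. Slc38a10, a less studied member, stood at -0.0032 with an interval of -0.13 to 0.12.

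In the Slc6 family, 1 of 5 tested genes rose, none fell and 4 did not pass, where 12.4% of all tested genes rose and 10.5% fell. Slc6a13, which takes up GABA and taurine, had 5.39, 6.23 and 5.64 FPKM in KCl and 3.11, 3.21 and 3.41 in control. All 3 KCl libraries were above all 3 control libraries, and the rise was 0.85 ± 0.10 on the log2 scale, 1.80-fold (edgeR adjusted p = 0.00414). It spans 121300227 to 121337733 on the plus strand of chromosome 6.

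Slc6a9, a glycine carrier, had 1.05, 0.672 and 0.913 FPKM in KCl and 0.522, 0.788 and 0.602 in control. The groups overlapped, and the log2 fold change of 0.48 had a 95% interval of -0.03 to 0.99 (edgeR adjusted p = 0.169). The creatine carrier Slc6a8 (0.22, interval -0.02 to 0.46), the serotonin carrier Slc6a4 (-0.10, -0.34 to 0.14) and Slc6a19, the neutral amino acid carrier of gut and kidney (0.26, -0.56 to 1.07), did not pass either.

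Of the 3 tested genes of the cationic subfamily, Slc7a1 fell, Slc7a4 rose and Slc7a3 did not pass. Over all tested genes 12.4% rose and 10.5% fell. Slc7a1, the widely expressed arginine and lysine carrier, had 8.39, 7.99 and 8.45 FPKM in KCl and 10.5, 10.6 and 10.2 in control. The groups did not overlap, and it fell by 0.31 ± 0.04 on the log2 scale, or 19.5% (edgeR adjusted p = 0.00572). Slc7a4, a relative whose human form did not carry cationic amino acids in cells, had 0.309, 0.520 and 0.415 FPKM in KCl and 0.0972, 0.201 and 0.151 in control, from 55, 87 and 70 counts in KCl and 19, 41 and 20 in control. It rose by 1.49 ± 0.33 on the log2 scale (edgeR adjusted p = 0.0221), but did not pass when control 1 (0.0540), control 4 (0.0703), KCl 2 (0.0620) or KCl 4 (0.0659) was left out. Slc7a3, with 9 to 10 counts in KCl and 12 to 20 in control, had a log2 fold change of -0.61 and did not pass (edgeR adjusted p = 0.195).

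The CD98 light chain Slc7a5 fell, while the change of its heavy chain did not pass. Slc7a5, which exchanges large neutral amino acids such as leucine, was first in level of the 28 genes. It had 48.8, 45.5 and 48.0 FPKM in KCl 1, 2 and 4 and 60.1, 64.4 and 61.3 in control 1, 2 and 4. The groups did not overlap, and it fell by 0.36 ± 0.05 on the log2 scale, or 22.3% (edgeR adjusted p = 0.00538). Slc3a2 was second, with 34.4, 38.3 and 35.97 FPKM in KCl and 39.8, 38.6 and 39.6 in control. All KCl libraries of Slc3a2 were below the control libraries, by little, and the log2 fold change of -0.10 had a 95% interval of -0.26 to 0.06 (edgeR adjusted p = 0.399). Whether the light and the heavy chain differ in their change was not tested.

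The other light chains tested, which share this heavy chain, did not pass. Slc7a8, which carries neutral amino acids large and small, averaged 24.2 ± 0.687 FPKM in KCl and 24.1 ± 3.01 in control (SD, n = 3 each), Slc7a6 13.7 ± 0.526 in KCl and 14.2 ± 0.670 in control, and Slc7a7 6.94 ± 0.575 in KCl and 7.34 ± 0.871 in control. Slc7a6 and Slc7a7 exchange cationic for neutral amino acids. The 95% intervals of their log2 fold changes lay within -0.32 to 0.26. Slc7a6os, on chromosome 8 from 106200717 to 106210935, ends on the opposite strand 2010 bases from Slc7a6 and does not overlap it in GENCODE M21. It had 19.9, 16.9 and 18.5 FPKM in KCl and 22.1, 23.4 and 22.9 in control, and fell by 0.28 ± 0.07 on the log2 scale (edgeR adjusted p = 0.0273). Leaving out control 2 (0.0721), control 4 (0.101), KCl 2 (0.0696) or KCl 4 (0.106) ended the call.

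Of the neutral exchangers of the Slc1 family, Slc1a4 fell and Slc1a5 did not pass. Slc1a4, which exchanges alanine, serine and cysteine, had 0.721, 0.718 and 0.817 FPKM in KCl 1, 2 and 4 and 2.81, 1.83 and 2.30 in control 1, 2 and 4, from 95, 89 and 102 counts in KCl and 406, 276 and 226 in control. Every KCl library was under the lowest control library by a wide margin, and it fell by 1.60 ± 0.17 on the log2 scale, 3.03-fold (edgeR adjusted p = 0.00375). The start of Slc1a4 holds the C/EBP-ATF word shown above, and whether that word has a part in the fall was not tested. Slc1a4 spans 20302180 to 20332713 on the minus strand of chromosome 11. Slc1a5, the glutamine carrier of proliferating cells, had 25.1, 22.2 and 27.8 FPKM in KCl and 27.7, 28.1 and 23.8 in control. The groups overlapped, and the log2 fold change was -0.06 with a 95% interval of -0.29 to 0.16. The glutamate carriers Slc1a1, Slc1a2 and Slc1a3 were scarce, with at most 17 counts in any library.

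Of the Slc43 family, which moves large neutral amino acids without coupling to an ion, 1 of 3 genes fell. Over all tested genes 10.5% fell. Slc43a1 had 0.107, 0.133 and 0.126 FPKM in KCl and 0.288, 0.224 and 0.248 in control, from 18, 21 and 20 counts in KCl and 53, 43 and 31 in control. It fell by 1.03 ± 0.18 on the log2 scale (edgeR adjusted p = 0.0116), with no overlap between groups, but missed the threshold without control 4 (0.0525) or KCl 4 (0.0569). Slc43a2 averaged 11.4 ± 0.671 FPKM in KCl and 10.5 ± 1.09 in control and did not pass. Slc43a3, the nucleobase carrier 72984 bases from Slc43a1 on chromosome 2, averaged 13.5 ± 1.58 in KCl and 14.4 ± 1.47 in control and did not pass.

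Levels can be set in order on the FPKM scale, which is per length. In control, Slc7a5 stood first at 61.9 ± 2.23 FPKM and Slc3a2 second at 39.3 ± 0.658. Slc38a1, Slc1a5, Slc7a8 and Slc7a6os followed at 27.5 to 22.8, and neighbours among these overlapped between libraries. The first 6 places were the same in KCl. Below these 6, Slc7a6os was clear of the next gene in control, while from Slc43a3 down to Slc7a1 neighbours overlapped. Slc36a1 stood seventh in KCl and ninth in control, Slc36a2 stood at rank 20 in KCl and 24 in control, and Slc1a4 stood at rank 24 in KCl and 19 in control. The summed FPKM of all 47 genes was 298 to 315 in KCl and 312 to 333 in control, and these ranges overlap. Slc36a2 and Slc1a4, whose folds were the greatest in each direction, are thus among the less abundant carriers. The 19 scarce genes had at most 20 counts in any library and include the epithelial heavy chain Slc3a1 with its light chain Slc7a9, and the neuronal noradrenaline, dopamine and proline carriers Slc6a2, Slc6a3 and Slc6a7.

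Of the carriers that the rule leaves out, Slc6a20a (log2 fold change 4.81 ± 0.40), the betaine carrier gene Slc6a12 (2.45 ± 0.13), which starts 5342 bases beyond Slc6a13, Slc38a2 (0.69 ± 0.07), which lies 44478 bases from Slc38a1, and the taurine carrier gene Slc6a6 (0.59 ± 0.06) rose. The cystine exchanger Slc7a11 (0.25 ± 0.24) and the arginine carrier Slc7a2 (0.30 ± 0.52) varied widely between libraries and did not pass (edgeR adjusted p = 0.568 and 0.732).

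Among genes of the amino acid response driven by GCN2 and ATF4, more fell than rose. The 27 tested genes divide into 3 that rose, 11 that fell and 13 that did not pass (51.9% called), with a median log2 fold change of -0.16, where 22.9% of all tested genes were called. Stc2, a secreted stress protein, averaged 0.123 ± 0.0223 FPKM in KCl and 0.867 ± 0.0665 in control and fell by 2.79 ± 0.15 on the log2 scale. Asns averaged 8.78 ± 0.599 FPKM in KCl and 18.5 ± 0.937 in control and fell by 1.05 ± 0.06. The serine synthesis gene Psat1 (-0.51 ± 0.04) and the folate enzyme gene Mthfd2 (-0.41 ± 0.04) fell too, with edgeR adjusted p from 0.00155 to 0.00356 over the 4. Stc2 (0.0380) and Asns (0.0429) also passed without replicate 4. Atf4 itself fell by 0.16 ± 0.04 (edgeR adjusted p = 0.0450), but not past the threshold without any 1 of the 6 libraries (0.0721 to 0.176). Eif2ak4, which encodes GCN2 (-0.05, interval -0.18 to 0.09), and Ddit3, which encodes the stress factor CHOP (0.09, interval -0.13 to 0.31), did not pass.

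Of 36 tested genes that sense amino acids for mTORC1, 5 rose, 5 fell and 26 did not pass, with a median of 0.01. The share called, 27.8%, is near the 22.9% over all tested genes, and none of the 10 passed without replicate 4. Rragb, a GTPase of the lysosomal mTORC1 dock, averaged 0.296 ± 0.0282 FPKM in KCl and 0.771 ± 0.0210 in control and fell by 1.35 ± 0.15 on the log2 scale (edgeR adjusted p = 0.00392). Its partner Rragc rose (0.33 ± 0.05) and so did Flcn, whose product activates that partner (0.51 ± 0.08), while Rptor, a core part of mTORC1, fell (-0.31 ± 0.05). The leucine sensor gene Sesn2 averaged 22.3 ± 2.82 FPKM in KCl and 35.4 ± 3.30 in control and fell by 0.65 ± 0.10 (edgeR adjusted p = 0.00841). Gatsl3, the arginine sensor gene now named Castor1, fell by 0.96 ± 0.24 (edgeR adjusted p = 0.0324), a call that ended with control 1, control 4, KCl 1 or KCl 4 left out (0.0538 to 0.0974).

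For enzymes that use or make these amino acids, 27 genes were tested, of which 3 rose and 7 fell (37.0% called), with a median of -0.05. Of all tested genes, 22.9% were called, 12.4% higher and 10.5% lower. Without replicate 4, Asns alone of this list passed. Besides Asns, which is in both lists with Gpt2 and Shmt2, Asnsd1, a relative of Asns, averaged 15.1 ± 0.302 FPKM in KCl and 21.3 ± 1.46 in control and fell by 0.48 ± 0.06 on the log2 scale (edgeR adjusted p = 0.00581). Bckdha, a subunit of the enzyme that breaks down branched-chain amino acids, averaged 26.9 ± 1.72 FPKM in KCl and 17.6 ± 0.954 in control and rose by 0.63 ± 0.07 (edgeR adjusted p = 0.00375). Its partner subunit gene Bckdhb went the other way and fell by 0.66 ± 0.15 (edgeR adjusted p = 0.0238). That call ended with control 1, control 4 or KCl 4 left out (0.0682 to 0.0853). The branched-chain aminotransferase gene Bcat1 fell by 1.21 ± 0.17 (edgeR adjusted p = 0.00670), and Bcat2 did not pass. Got1, the cytosolic aspartate aminotransferase gene, rose by 0.48 ± 0.06 (edgeR adjusted p = 0.00446). The glutamine synthetase gene Glul (0.08, interval -0.10 to 0.26) did not pass.

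Amino acid and peptide carriers outside these families, many of them lysosomal, were mostly higher. The 10 tested genes include 6 that rose and 1 that fell, with a median log2 fold change of 0.39 (70.0% called). Of all tested genes, 22.9% were called, 12.4% higher and 10.5% lower. Pqlc2, the lysosomal exporter of cationic amino acids, averaged 3.48 ± 0.0736 FPKM in KCl and 2.68 ± 0.0715 in control and rose by 0.40 ± 0.07 (edgeR adjusted p = 0.0103). The endolysosomal histidine and peptide carriers differed in sign, since Slc15a4 rose by 0.39 ± 0.06 while Slc15a3 averaged 15.2 ± 0.885 FPKM in KCl and 22.9 ± 0.684 in control and fell by 0.57 ± 0.05 (edgeR adjusted p = 0.00259). Slc17a5, the lysosomal sialic acid exporter, rose by 0.44 ± 0.10 (edgeR adjusted p = 0.0223), a call that ended with control 1, control 4, KCl 2 or KCl 4 left out (0.0516 to 0.0734). The rises of Ctns, Mfsd12 and Slc17a7 each lost the call in 5 of the fits with 1 library left out. None of these 10 genes passed without replicate 4.

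**Figure D3:**
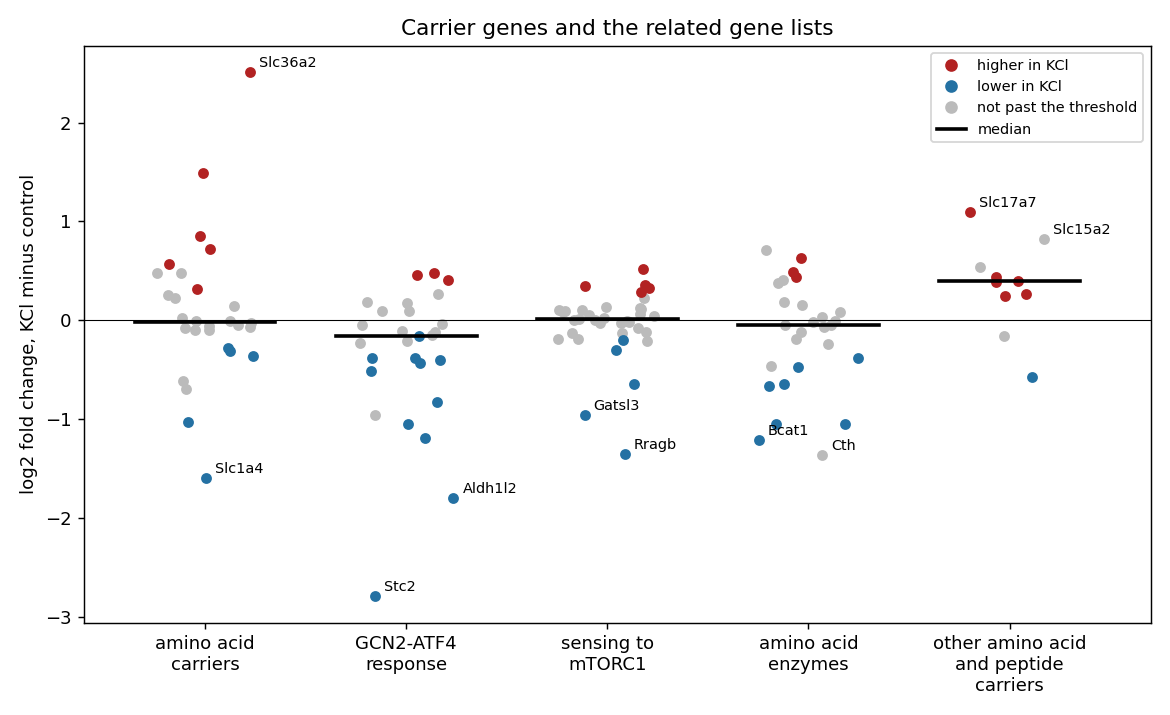
Log2 fold change (y axis, KCl minus control) of each tested gene in the 28 carrier genes and the 4 related lists (x axis), coloured by call, with each list's median as a bar. The carrier median is at -0.020 with points from -1.60 to 2.51, the GCN2-ATF4 median is at -0.16 and that of the other amino acid and peptide carriers is at 0.39. Points are spread sideways only to keep them apart.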

How the data were processed

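Messenger RNA of cultured mouse bone marrow cells was sequenced in 6 libraries, grouped by their treatment labels. The authors deposited a whole-number count and an FPKM value per gene and library. The submitters' processing notes name build mm10, HISAT2 2.0.4, StringTie 1.3.3b and edgeR, but neither a counting program nor a strand setting. FPKM served for levels only. Counts went into edgeR 4.0.16 in R 4.3.3 (filterByExpr, minimum count 10 and minimum total 15; TMM scaling; robust quasi-likelihood test, 2-sided; Benjamini-Hochberg adjustment over all 13326 genes). Fold changes are KCl minus control, with the standard error (SE) the test implies. The fit was checked on simulated counts in which all 6 libraries were independent. That check does not cover the dependence of KCl 4 and control 4 on the other libraries. The labels do not say that replicates are separate cultures, so the spread that p-values rest on may be technical.

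Alternatives were RLE and upper-quartile scaling, 2 other filters, DESeq2 1.42.0, limma-voom (limma 3.58.1), a replicate block, each library left out and replicate 4 left out. The genes, lists and rules were chosen with earlier results of these data known. Values per library are given for genes past the threshold and for Slc3a2, Slc7a5, Slc7a1, Slc1a5, Slc38a1, Slc38a9 and Slc36a1. From each related list the 4 genes with the smallest p are named, and always Atf4, Asns, Eif2ak4, Ddit3, Sesn2, Castor1 and Glul. Values of some single genes are left out here. Other genes with values per library were chosen after their values were seen. Positions are from GENCODE M21 on mm10, and promoter sequences from RefSeq.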

Additional observations from a re-analysis of the deposited data

How the results depend on the processing

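The 11 carrier genes passed and kept their sign under RLE and upper-quartile scaling, without a filter, with a mean count of at least 10, in DESeq2 and in limma-voom. Limma-voom also called Slc36a3os (adjusted p = 0.0390) and DESeq2 Slc38a7. The deviations of same-numbered libraries from their group means had correlations of 0.02, -0.06 and -0.75 for replicates 1, 2 and 4. Because KCl 4 and control 4 depend on the remaining libraries, these values cannot show whether the numbers pair the samples. With the replicate block 1678 genes passed (978 higher, 700 lower), 9 carriers (6 higher, 3 lower, with Slc38a7 added and Slc43a1, Slc7a6os and Slc36a4 lost) and 24 related genes (10 higher, 14 lower). Upper-quartile scaling turned the balance over all genes, with 1422 higher and 1735 lower. All 6 libraries with TMM gave 3057 genes (1655 higher, 1402 lower) and 39 related genes (17 higher, 22 lower). With 1 library, or replicate 4, left out, the counts ran from 62 to 2851 genes (45 to 1495 higher, 17 to 1356 lower), from 1 to 11 carriers (1 to 7 higher, 0 to 5 lower) and from 2 to 37 related genes (0 to 17 higher, 2 to 20 lower). The lowest values are those without replicate 4, where at an unadjusted p under 0.05 edgeR gave 6 carriers higher and 6 lower, and 19 related genes higher and 26 lower. The arms then hold 2 libraries each, and the cause of the drop was not tested. Of 392 values of single carriers under the alternatives, 352 kept direction and call. Signs turned in 12 values of 6 genes, none past the threshold. Slc7a8 was -0.019 with upper-quartile scaling. With libraries left out, Slc7a8 ran from -0.057 to 0.13, Slc6a19 from -0.13 to 0.57, Slc7a6 from -0.078 to 0.00015, Slc7a7 from -0.16 to 0.029, Slc38a10 from -0.057 to 0.022 and Slc38a9 from -0.077 to 0.071.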
